A study of Oryctolagus cuniculus with 17 samples.

Results

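Collagen genes were taken as every entry of the count table whose human gene name has the form COL, a number, A and a number, keeping the entry with the highest total for each symbol, which gave 38 genes of the 13827 listed. RNA-seq was done on 17 homogenates of the right lung of New Zealand White rabbit pups, and the question was how collagen expression differed between pups kept in hyperoxia (H) and in normoxia (N). The right lung is named in the methods of the study, while a sentence of its results names the left lung. All pups were born preterm on gestation day 28, fed a milk replacer, and kept in incubators at 95% oxygen (HT3, HT5 and HT7, where the number is the postnatal day) or at 21% oxygen (NT3, NT5 and NT7). Each group held 3 samples except HT5, which held 2. The sources used here do not say which pups shared a litter, so the p-values measure the spread between these samples. The depth was 13123731 to 18111086 counts per sample, with each locus counted once, and all 38 genes passed the filter on low counts.

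Collagens are proteins of 3 chains wound into a triple helix. Fibrillar collagens form the fibrils that give tissue its tensile strength, basement membrane (type IV) collagen forms the sheet under epithelium and endothelium, FACIT collagens sit on the surface of fibrils, and transmembrane collagens are anchored in the plasma membrane. In the lung, fibrils of types I and III lie in the interstitium and around airways and vessels, and type IV networks lie between the air space and the capillary.

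By class, the 38 genes were 11 of 11 listed fibrillar chains, 6 of 6 basement membrane chains, 7 of 10 FACIT chains, 4 of 4 transmembrane collagens, 2 of 2 multiplexins (COL15A1 and COL18A1), 4 of 5 chains of the beaded filament type VI, 2 of 3 short chain network collagens (COL8A1 and COL8A2), and COL26A1 and COL28A1. COL6A1, COL7A1, COL9A3, COL10A1, COL20A1 and COL22A1 were not analysed here. None of the 38 shared a locus with another gene in the table. Genes on the opposite strand overlapped with COL4A4 (RHBDD1, by 26095 bases), COL27A1 (WHRN, 7893 bases) and COL6A6 (PIK3R4, 508 bases, with 20715 counts in all against 222 for COL6A6), and their reads cannot be told apart if strand was not used in counting. Some gene models covered a short stretch of their scaffold in OryCun2.0, among them COL18A1 (scaffold GL019369, positions 1111 to 3311) and COL5A1 (GL019578, 29112 to 37589), so their counts may come from part of the transcript. Levels are given as CPM, counts scaled to a common library size by TMM. They compare samples for 1 gene and not genes with each other, since transcript lengths are not known here.

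Collagen transcripts took a smaller mean share of the counts in hyperoxia on all 3 days, which is given without a test. The share was 2.35% ± 0.0909 (SD, n = 3) in HT3 against 2.87% ± 0.213 (n = 3) in NT3, 1.96% ± 0.0538 (n = 2) in HT5 against 2.51% ± 0.158 (n = 3) in NT5, and 1.94% ± 0.104 (n = 3) in HT7 against 2.41% ± 0.341 (n = 3) in NT7. The samples of both conditions did not overlap on days 3 and 5, and on day 7 the highest HT7 sample (2.03%) was above the lowest NT7 sample (2.02%). These are lung homogenates, in which fewer cells of a type and less RNA per cell cannot be told apart.

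Gene by gene, HT was tested against NT of the same day by the edgeR quasi-likelihood test over all 13142 genes tested, with Benjamini-Hochberg adjustment, and a gene was called up- or downregulated at an adjusted p under 0.01. On day 3 no collagen was called (0.205% of all genes were), 7 of 38 had an unadjusted p under 0.05 against 15.3% of all genes, and DESeq2 called 1, COL15A1. On day 5, 8 collagens were downregulated (background 7.62%) and 1 was upregulated (8.56%). On day 7, 13 were downregulated (16.9%) and 4 upregulated (16.7%). With the replicate number as a block within days, the day 5 counts were 4 (3.78%) and 0 (3.58%). Genes whose call on day 5 or 7 was lost with this block are named in the part on processing. Fits to the samples of 1 day alone, with fewer samples behind the spread, called 0 of 37 collagens tested on day 5 (0.0315% of all genes downregulated and 0.063% upregulated), with 22 at an unadjusted p under 0.05 (37.6% of all genes), and 8 downregulated (11.8%) and 2 upregulated (11.6%) on day 7, all by edgeR. In the fit to all samples, the downregulated share was above the background on days 5 and 7, while the upregulated share was below it. Differentially expressed genes (DEGs), which also had a log2 fold change (log2FC) above 2 or below -2, were COL15A1 on day 5 (background of downregulated DEGs 0.761%), and on day 7 the downregulated COL4A3, COL4A4, COL13A1, COL15A1, COL19A1 and COL23A1 (2.84%) and the upregulated COL5A3 (1.75%).

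The log2FC was negative for 33, 30 and 29 of the 38 genes on days 3, 5 and 7, against 6561, 6751 and 6619 of the 13142 genes tested. Its median over the collagens was -0.35, -0.57 and -0.69, and over all genes 0.001, -0.019 and -0.008. Groups that did not overlap, with all HT samples below all NT samples, were found for 15, 22 and 16 collagens on days 3, 5 and 7 (background 13.9%, 29.2% and 27.2%), and the reverse order for 0, 6 and 5 (12.8%, 26.5% and 27.3%). On day 3, then, no collagen passed the test, while more than the background share lay below normoxia in all samples.

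The 4 main classes are described by their medians, without a test. The fibrillar median log2FC was -0.35, -0.58 and -0.45 on days 3, 5 and 7. The basement membrane median was -0.17, -0.52 and -1.23, the FACIT median -0.49, -0.74 and -0.70, and the transmembrane median 0.03, -0.95 and -1.68. The basement membrane and transmembrane medians were thus nearest to 0 on day 3 and farthest from it on day 7, with few members behind each and single chains, such as COL4A1, COL4A2 and COL17A1, that did not follow this order or differed little between days. Without HT7 replicate 2, the day 7 medians were -1.86 for basement membrane, -2.70 for transmembrane and -1.15 for FACIT. On day 5, they moved to -1.11, -1.65 and -1.07 without HT5 replicate 1 and to -0.31, -0.50 and -0.44 without HT5 replicate 2, while on day 3 the basement membrane median was -0.39 without HT3 replicate 2.

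**Figure D1:**
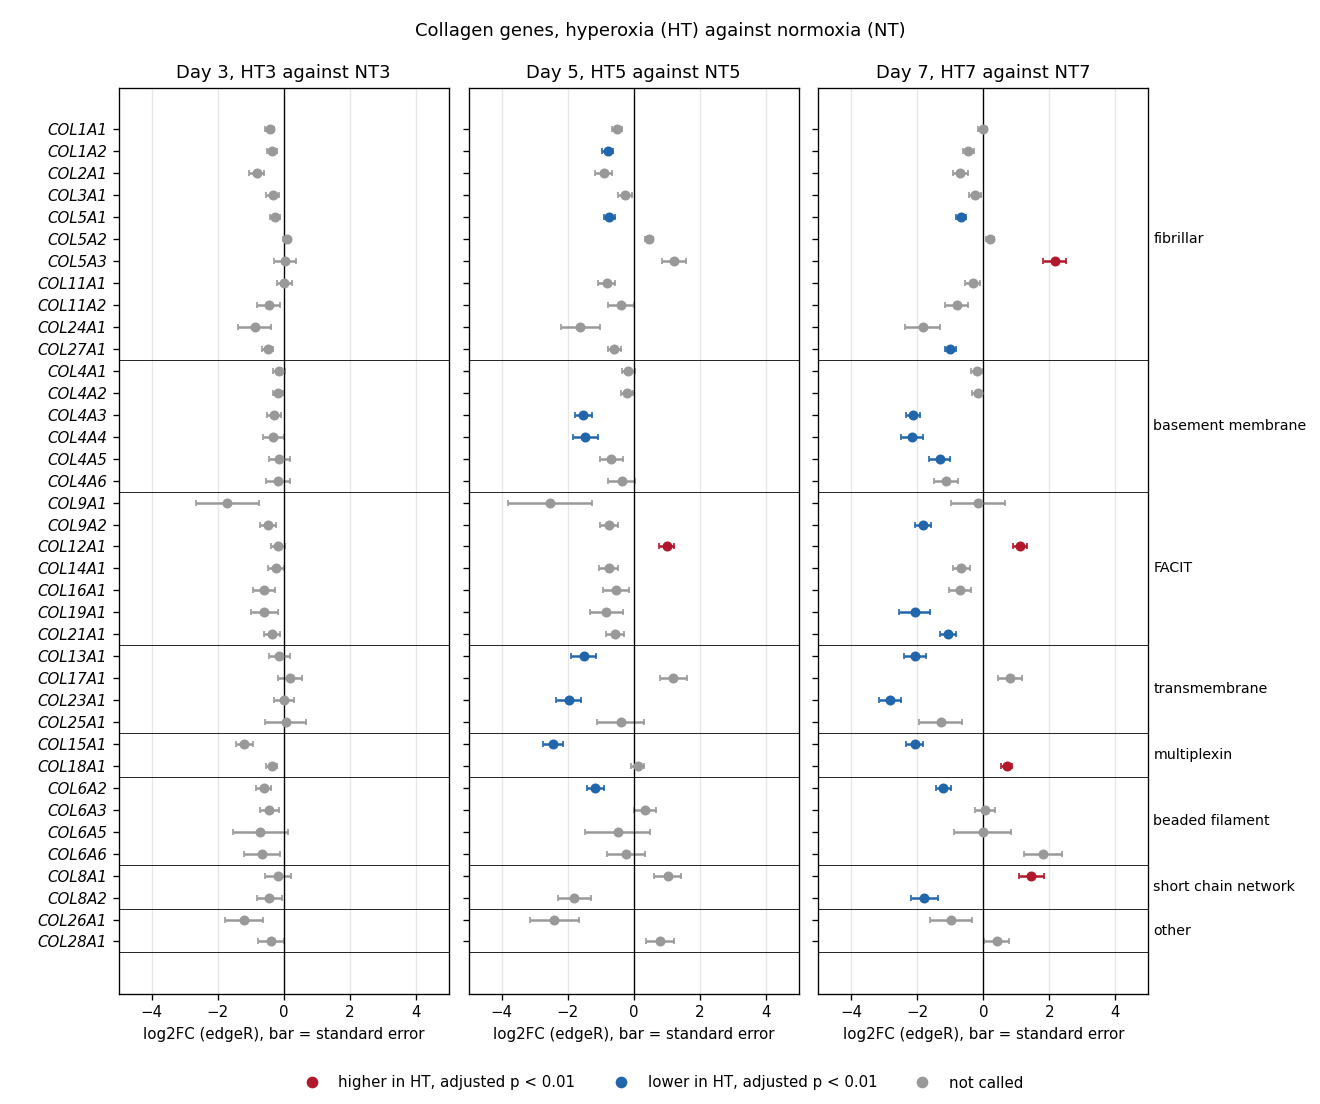
Log2FC of hyperoxia against normoxia for the 38 collagen genes on days 3, 5 and 7, in rows grouped by class, with bars for the standard error and colour for the call at an adjusted p under 0.01 (edgeR). All points of day 3 are grey, COL15A1 lies farthest left among the called genes of day 5, and on day 7 the calls run from -2.83 for COL23A1 to 2.16 for COL5A3.

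Of the basement membrane chains, COL4A3 and COL4A4 were downregulated on days 5 and 7 and COL4A5 on day 7, while COL4A1 and COL4A2 were not called on any day. Type IV collagen has 6 chains. COL4A1 and COL4A2 together form the network found in nearly all basement membranes, COL4A3, COL4A4 and COL4A5 form another network found in the alveolus and the kidney glomerulus, and COL4A5 and COL4A6 form one more. The genes lie in head-to-head pairs: in OryCun2.0, COL4A1 at chr8:111526224-111654907 on the minus strand and COL4A2 at chr8:111654339-111791972 on the plus strand overlapped by 569 bases, and COL4A4 (chr7:168764985-168943478, minus strand) lay beside COL4A3 (chr7:169014987-169094638, plus strand).

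For COL4A3, whose product carries the Goodpasture antigen, replicates 1, 2 and 3 had 849, 874 and 711 CPM in NT3 and 641, 778 and 582 in HT3. On day 5 the values were 582, 887 and 807 in NT5 and 313 and 217 in HT5, and on day 7 they were 489, 618 and 688 in NT7 and 97.9, 162 and 151 in HT7. The groups overlapped on day 3 and did not on days 5 and 7, when every HT sample was below every NT sample. The log2FC was -1.52 (SE 0.25, adjusted p = 0.000688) on day 5 and -2.13 (SE 0.22, adjusted p = 5.86e-06) on day 7, a 4.37-fold lower level on the later day. The day 5 call was lost without HT5 replicate 2 (log2FC -1.29, adjusted p = 0.0239).

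COL4A4, the partner of COL4A3 in the trimer, had 971, 1014 and 867 CPM in NT3 and 816, 850.2 and 631 in HT3. It had 879, 1139 and 924 in NT5 against 508 and 202 in HT5, and 634, 724 and 756 in NT7 against 92.3, 252 and 128 in HT7. HT samples lay below NT samples on all 3 days, with HT5 replicate 1 and HT7 replicate 2 nearest to normoxia. Its log2FC was -1.47 (SE 0.38, adjusted p = 0.00976) on day 5 and -2.16 (SE 0.34, adjusted p = 0.000134) on day 7. The day 5 call was lost without HT5 replicate 2 (log2FC -0.97, adjusted p = 0.144), without NT5 replicate 1 (log2FC -1.54, adjusted p = 0.0139), without NT5 replicate 2 (log2FC -1.34, adjusted p = 0.0307) and without NT5 replicate 3 (log2FC -1.51, adjusted p = 0.0205).

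COL4A5 had 781, 737 and 670.0 CPM in NT3, 677, 781 and 537 in HT3, 619.7, 591 and 658 in NT5, 532 and 250.5 in HT5, 568, 645 and 586 in NT7 and 138, 397 and 183 in HT7. It was called on day 7 only, at a log2FC of -1.32 (SE 0.32, adjusted p = 0.00336), after -0.67 (adjusted p = 0.163) on day 5. The day 5 value ranged from -1.315 to -0.243 in fits that left out 1 sample. The day 7 call was lost without HT7 replicate 1 (log2FC -1.05, adjusted p = 0.0157), without HT7 replicate 3 (log2FC -1.15, adjusted p = 0.021) and without NT7 replicate 2 (log2FC -1.27, adjusted p = 0.0124). COL4A6 had 302, 287 and 252 CPM in NT3, 189.9, 324 and 233 in HT3, 207, 177 and 174 in NT5, 190.1 and 99.2 in HT5, 246, 194 and 209.8 in NT7 and 50, 176 and 70.6 in HT7. HT7 replicate 2 stood near the lowest NT7 sample for COL4A6, and the log2FC of -1.14 (SE 0.36, adjusted p = 0.0172) was not called with it and was -1.83 (adjusted p = 9.22e-05) without it, while DESeq2 called it with all samples (adjusted p = 0.00295).

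COL4A1 had 5560, 5040 and 5423 CPM in NT3, 4099, 6266 and 4068 in HT3, 4726, 4917 and 4571 in NT5, 3875 and 4574 in HT5, 3153, 4968 and 4499 in NT7 and 3938, 3263 and 3909 in HT7. COL4A2 had 4011, 3439 and 3409 CPM in NT3, 2830, 3854 and 2915 in HT3, 2974, 3108 and 2971 in NT5, 2468 and 2784 in HT5, 2315, 3306 and 3090 in NT7 and 2935, 2158 and 2621 in HT7. The day 7 groups of both genes overlapped, and their log2FC on day 7 was -0.18 (SE 0.18, adjusted p = 0.418) and -0.17 (SE 0.16, adjusted p = 0.375). The summed CPM of COL4A3 and COL4A4 per summed CPM of COL4A1 and COL4A2 was 0.197 ± 0.0229 (SD, n = 3) in NT3 and 0.182 ± 0.0256 in HT3, 0.224 ± 0.0317 in NT5 and 0.0932 ± 0.0513 (n = 2) in HT5, and 0.186 ± 0.0220 in NT7 and 0.0489 ± 0.0248 in HT7. The highest HT7 value, 0.0762, was below the lowest NT7 value, 0.162.

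Marker genes of the cells that border this membrane moved as well. Of the alveolar type 1 list, 5 of 6 genes were in the table, and AGER, CLIC5 and RTKN2 were downregulated on day 7 while HOPX and PDPN were not called. Its summed level was 1652 to 2178 CPM in HT7 against 4777 to 6048 in NT7, 1786 to 2958 in HT5 against 4301 to 5046 in NT5, and 4276 to 5698 in HT3 against 5243 to 5886 in NT3. Of 5 of 6 endothelial markers in the table, CDH5, KDR and TIE1 were downregulated on day 7, with sums of 778.5 to 1184 CPM in HT7 against 1742 to 2131 in NT7. The sums were 1086 to 1091 CPM in HT5 against 1687 to 2075 in NT5, with 3 markers downregulated. On day 3 they were 1689 to 2204 in HT3 against 2038 to 2354 in NT3, with 1 downregulated. PECAM1 (mean 550.9 CPM in HT7 against 570.2 in NT7) and VWF (243.5 against 199) were not called on day 7, and VWF was upregulated on day 5 (221.3 against 100.1). No marker of either list was at 0 in any group. Of 5 of 6 alveolar type 2 markers in the table, none was called by edgeR on any day. On day 7, though, SFTPA1 was higher in all HT7 samples (mean 7435 CPM against 3315 in NT7). SLC34A2 was lower in all of them (497.7 against 1417). The sum of the 5 markers was 32810 CPM in HT5 replicate 1 and 12500 in HT5 replicate 2 against 12390 to 24520 in NT5, and 29160 in HT7 replicate 2 and 13320 and 16110 in HT7 replicates 1 and 3 against 17000 to 22900 in NT7. HT5 replicate 1 and HT7 replicate 2, highest in these markers in their group, were also the HT samples nearest to normoxia for COL4A3, COL4A4, COL4A5 and COL4A6. This was not particular to type 2 markers. Both samples also had the highest sums of their group for alveolar type 1 (2958 and 2178 CPM) and fibroblast markers (656.6 and 546.5). The same held for mesothelial (48.75 and 38.7) and Schwann cell markers (32.86 and 15.06), while their endothelial sums were the lowest (1086 and 778.5). The part of these cells in the type IV values was not tested.

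**Figure D2:**
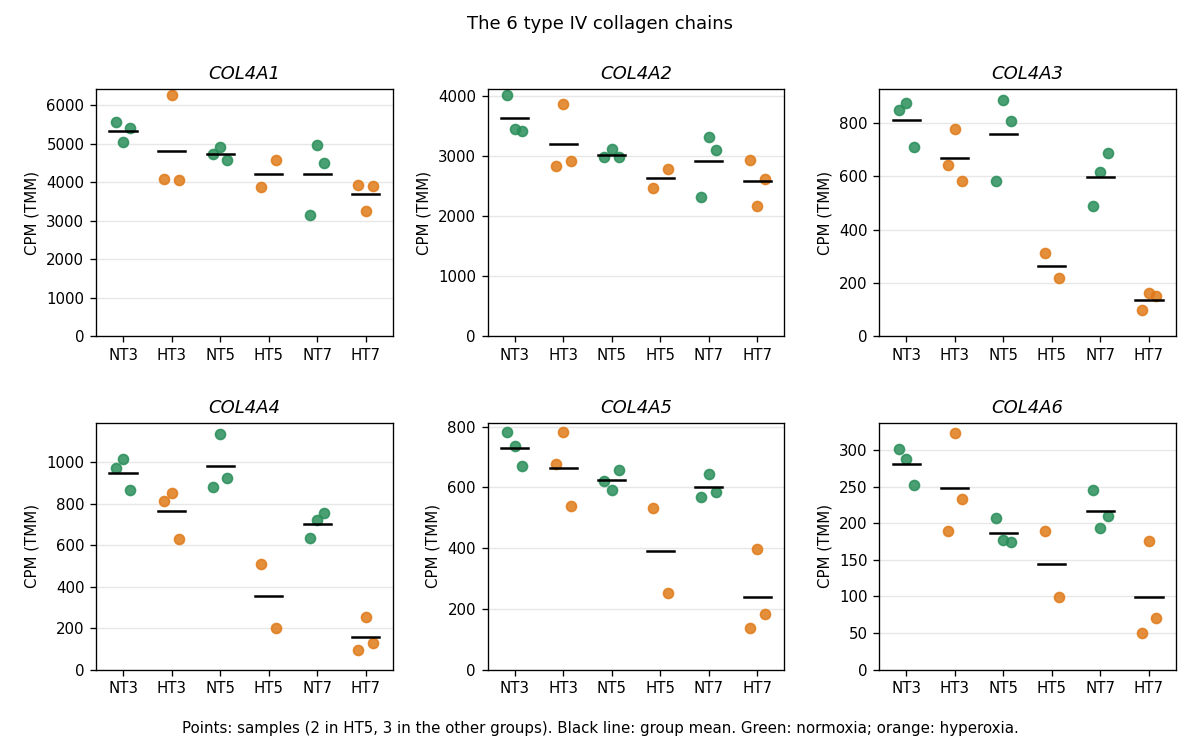
CPM of the 6 type IV collagen chains in each sample, with a panel for each gene, the groups on the horizontal axis, points for samples and black lines for group means. COL4A3 and COL4A4 fell in HT5 and HT7 below all normoxia samples of the day, from an NT7 mean of 598 to an HT7 mean of 137 CPM for COL4A3, while the day 7 groups of COL4A1 and COL4A2 overlapped.

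Of the 4 transmembrane collagens, COL13A1 and COL23A1 were downregulated on days 5 and 7, COL25A1 was not called, and COL17A1 had a positive log2FC that did not pass. COL13A1, which takes part in cell adhesion and in the neuromuscular junction, had 544, 492 and 454 CPM in NT3 and 439.9, 543 and 369.9 in HT3. It had 363, 422 and 484 in NT5 and 202 and 95.3 in HT5, and 411, 490.5 and 426 in NT7 and 82.4, 174 and 59.9 in HT7. The day 3 groups overlapped and those of days 5 and 7 did not. The log2FC was -1.51 (SE 0.38, adjusted p = 0.00794) on day 5 and -2.07 (SE 0.33, adjusted p = 0.000165) on day 7, and the day 5 call was lost without HT5 replicate 2 (log2FC -1.08, adjusted p = 0.132), without NT5 replicate 1 (log2FC -1.61, adjusted p = 0.0105), without NT5 replicate 2 (log2FC -1.50, adjusted p = 0.0196) and without NT5 replicate 3 (log2FC -1.40, adjusted p = 0.0252).

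COL23A1 is among the genes the study chose on these samples to show a decline over time, so its direction is not independent evidence. It had 94.4, 87 and 63.3 CPM in NT3 and 101, 92.4 and 50 in HT3, 78.6, 67.2 and 104 in NT5 and 28 and 14.6 in HT5, and 110.1, 94.2 and 85.4 in NT7 and 12.6, 19.2 and 8.96 in HT7. The highest HT7 sample (19.2) was below the lowest NT7 sample (85.4), while the day 3 groups overlapped. Its log2FC was -1.97 (SE 0.37, adjusted p = 0.00157) on day 5 and -2.83 (SE 0.33, adjusted p = 1.48e-05) on day 7, 7.11-fold lower. The call of day 5 was lost without HT5 replicate 2 (log2FC -1.59, adjusted p = 0.0425).

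COL17A1, the hemidesmosome collagen of basal epithelial cells, had 3.39, 2.80 and 3.20 CPM in NT5 and 7.84 and 6.66 in HT5, and 6.97, 3.17 and 2.43 in NT7 and 8.19, 6.23 and 7.53 in HT7, after 5.88, 3.58 and 2.90 in NT3 and 4.38, 6.26 and 3.33 in HT3. The HT5 samples were both above all NT5 samples, and NT7 replicate 1 lay inside the HT7 range. The log2FC of 1.21 (SE 0.40, adjusted p = 0.0322) on day 5 and 0.81 (SE 0.36, adjusted p = 0.0788) on day 7 did not pass, and without NT7 replicate 1 the day 7 value was 1.39 (adjusted p = 0.00471), a call. Of 4 basal epithelial markers, KRT5 was upregulated on day 7 and the other 3 were not called. TP63 was higher in all HT7 samples (mean 4.57 CPM against 1.38 in NT7), while KRT17 had a lower mean (0.889 against 2.56). The summed level was 200.4 to 349.8 CPM in HT7 against 203 to 261.9 in NT7, mostly KRT15. The part of these cells in the COL17A1 value was not tested. COL25A1, which is expressed in neurons and developing muscle, had 10.7, 13.1 and 16.4 CPM in NT3, 16, 9.58 and 16.3 in HT3, 11.5, 18.3 and 9.25 in NT5, 14 and 5.90 in HT5, 4.17, 18.8 and 12.2 in NT7 and 1.61, 11.1 and 1.79 in HT7, and its day 7 log2FC of -1.29 (SE 0.65, adjusted p = 0.118) had groups that overlapped through HT7 replicate 2 and NT7 replicate 1.

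Among the FACIT collagens, COL12A1 was upregulated on days 5 and 7, and COL9A2, COL19A1 and COL21A1 were downregulated on day 7. COL12A1, a collagen of tendon, fascia and wounds that bridges fibrils, was singled out after its values were seen, as the only collagen upregulated on day 5. It had 236, 198 and 292 CPM in NT3 and 191, 235 and 216 in HT3, 326, 271 and 258 in NT5 and 472 and 671 in HT5, and 197, 223 and 339.7 in NT7 and 665, 444 and 526 in HT7. All HT samples of days 5 and 7 were above all NT samples of their day, while the day 3 groups overlapped. The log2FC was 1.0 (SE 0.24, adjusted p = 0.00567) on day 5 and 1.10 (SE 0.22, adjusted p = 0.000766) on day 7, or 2.15-fold higher on day 7. Its day 5 call was lost without HT5 replicate 2 (log2FC 0.71, adjusted p = 0.12), without NT5 replicate 2 (log2FC 0.98, adjusted p = 0.0207) and without NT5 replicate 3 (log2FC 0.94, adjusted p = 0.0245).

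COL9A2, a chain of the cartilage collagen type IX, had 14.6, 13.3 and 12.6 CPM in NT3 and 8.81, 10.9 and 9.22 in HT3, 10.5, 9.68 and 9.61 in NT5 and 8.11 and 3.84 in HT5, and 14.2, 9.65 and 14.8 in NT7 and 3.0, 4.41 and 3.48 in HT7. HT samples were below NT samples on all 3 days, and the log2FC of day 7 was -1.83 (SE 0.25, adjusted p = 5.39e-05). Its partner chain COL9A1 was near the limit of detection, with 14, 13 and 9 counts in NT3, 8, 2 and 0 in HT3, 7, 7 and 15 in NT5, 1 and 2 in HT5, 6, 2 and 32 in NT7 and 15, 4 and 23 in HT7, so all HT samples were below all NT samples on days 3 and 5 and the groups overlapped on day 7, and it was not called on any day by edgeR. COL19A1 had 19, 25 and 17 counts in NT3, 13, 18 and 7 in HT3, 13, 11 and 18 in NT5, 6 and 9 in HT5, 23, 10 and 11 in NT7 and 3, 5 and 4 in HT7, so its day 7 log2FC of -2.08 (SE 0.47, adjusted p = 0.0021) rests on few counts, and the call was lost without HT7 replicate 1 (log2FC -1.92, adjusted p = 0.0113), without HT7 replicate 3 (log2FC -2.0, adjusted p = 0.0114) and without NT7 replicate 1 (log2FC -1.56, adjusted p = 0.0144).

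COL21A1, found in vessel walls, fell on day 7 with a log2FC of -1.07 (SE 0.24, adjusted p = 0.0019), from 56.9, 44.7 and 38.5 CPM in NT7 to 15, 31.5 and 20.2 in HT7, and the call was lost without HT7 replicate 3 (log2FC -0.99, adjusted p = 0.0116) and without NT7 replicate 1 (log2FC -0.90, adjusted p = 0.011). COL14A1, a partner of type I fibrils, had -0.67 (SE 0.26, adjusted p = 0.0439), and COL16A1 had -0.70 (SE 0.34, adjusted p = 0.102), and neither passed. Cartilage markers moved beside the type IX chain: of 6 in the table, CNMD, MATN3 and HAPLN1 were downregulated and ACAN upregulated on day 7, while MATN1 (mean 163.5 CPM in HT7 against 188.6 in NT7) and SOX9 (10.7 against 9.18) were not called. MATN1 made up most of the sum of the list, 171.1 to 184.3 CPM in HT7 against 202.7 to 210.4 in NT7. The part of these markers in the COL9A2 value was not tested.

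**Figure D3:**
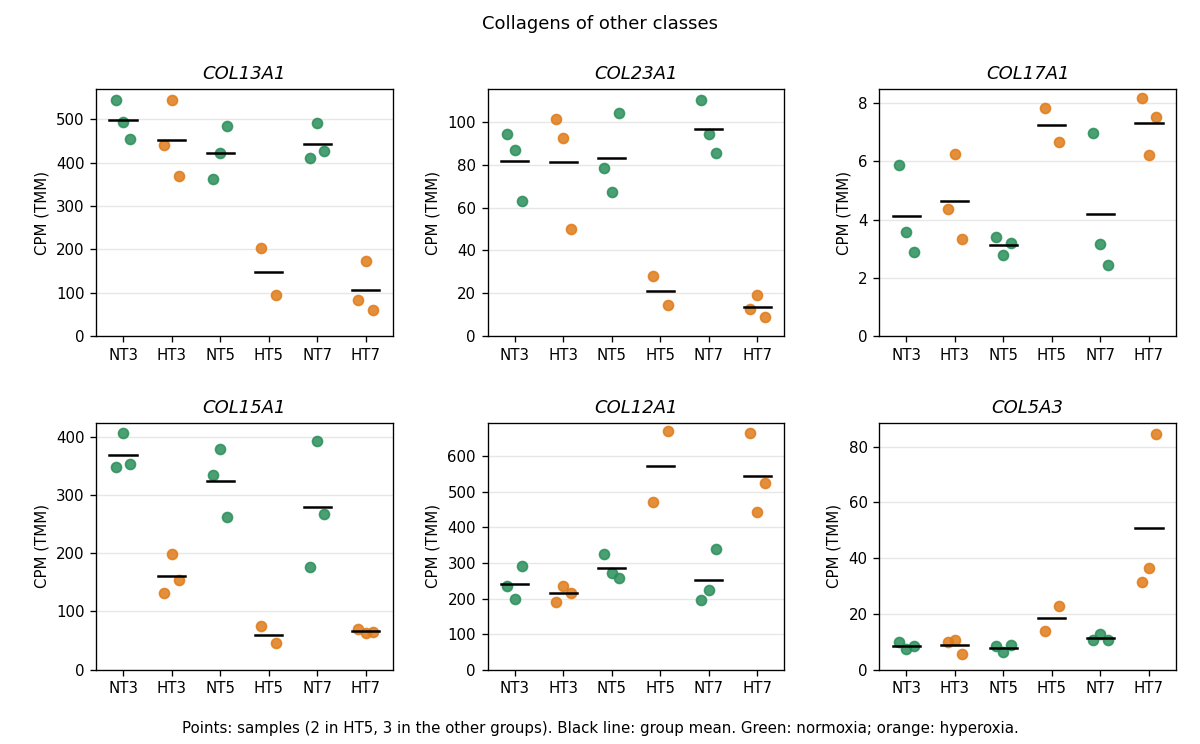
CPM of COL13A1, COL23A1, COL17A1, COL15A1, COL12A1 and COL5A3 in each sample, with a panel for each gene, points for samples and black lines for group means. COL13A1, COL23A1 and COL15A1 were below normoxia in all samples of HT5 and HT7, and COL12A1 and COL5A3 were above it in all of them.

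Of the 11 fibrillar chains, COL1A2 and COL5A1 were downregulated on day 5, COL5A1 and COL27A1 were downregulated on day 7, and COL5A3 was upregulated on day 7. The log2FC of the chains of the 2 main fibrils, types I and III, was between -0.79 and -0.03 over the 3 days. COL1A1 had 2649, 2595 and 2332 CPM in NT3 and 1653, 1973 and 2024 in HT3, 1918, 2363 and 2053 in NT5 and 1493 and 1494 in HT5, and 1846, 2527 and 1997 in NT7 and 2117, 1766 and 2371 in HT7. HT samples were below NT samples on days 3 and 5 and overlapped with them on day 7. Its log2FC was -0.42 (SE 0.14, adjusted p = 0.163) on day 3, -0.50 (SE 0.16, adjusted p = 0.0272) on day 5 and -0.03 (SE 0.14, adjusted p = 0.888) on day 7, and the last changed sign without HT7 replicate 2 (0.09) or NT7 replicate 2 (0.12).

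COL1A2, the other chain of type I, had 2808, 2512 and 2469 CPM in NT3 and 2146, 1985 and 1998 in HT3, 2021, 2225 and 2251 in NT5 and 1493 and 1020 in HT5, and 1671, 2373 and 2108 in NT7 and 1345, 1730 and 1424 in HT7. It was below normoxia in all samples of days 3 and 5, with a log2FC of -0.79 (SE 0.17, adjusted p = 0.00403) on day 5 and -0.45 (SE 0.15, adjusted p = 0.0237) on day 7. The day 5 call was lost without HT5 replicate 2 (log2FC -0.55, adjusted p = 0.0845), without NT5 replicate 2 (log2FC -0.76, adjusted p = 0.0139) and without NT5 replicate 3 (log2FC -0.76, adjusted p = 0.0143). COL3A1 had 5842, 4006 and 4392 CPM in NT3 and 4331, 2780 and 4134 in HT3, 3808, 4011 and 4367 in NT5 and 3838 and 2940 in HT5, and 3740, 4674 and 4833 in NT7 and 3363, 4359 and 3411 in HT7. The groups overlapped on every day, and the log2FC of COL3A1 was between -0.34 on day 3 and -0.25 on day 7 with no call.

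Type V collagen, which sits inside type I fibrils and sets their diameter, had chains that moved apart. COL5A3 had 9.91, 7.41 and 8.59 CPM in NT3 and 10, 10.8 and 5.78 in HT3, 8.54, 6.37 and 8.73 in NT5 and 13.9 and 22.9 in HT5, and 10.5, 12.8 and 10.8 in NT7 and 31.5, 36.3 and 84.7 in HT7. All HT7 samples were above all NT7 samples, HT7 replicate 3 by the most, and the log2FC on day 7 was 2.16 (SE 0.34, adjusted p = 0.000157), 4.47-fold higher. COL5A1 had 137, 183 and 174 CPM in NT5 and 112 and 85.5 in HT5, and 167, 212 and 182 in NT7 and 134, 91.3 and 127 in HT7. All HT samples lay below the NT samples of their day, with a log2FC of -0.74 (SE 0.17, adjusted p = 0.00554) and -0.68 (SE 0.15, adjusted p = 0.00201). The day 5 call of COL5A1 was lost without HT5 replicate 2 (log2FC -0.57, adjusted p = 0.0983), without NT5 replicate 2 (log2FC -0.64, adjusted p = 0.023) and without NT5 replicate 3 (log2FC -0.69, adjusted p = 0.0199), and the day 7 call without NT7 replicate 2 (log2FC -0.58, adjusted p = 0.0128). COL5A2 had 563, 611 and 687 CPM in NT5 and 892 and 823 in HT5, above it in both samples, and a log2FC of 0.47 (SE 0.12, adjusted p = 0.0113) on day 5 and 0.20 (SE 0.11, adjusted p = 0.154) on day 7, neither called.

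COL27A1, a fibrillar collagen of cartilage and developing tissue, had 93.2, 93.7 and 107 CPM in NT7 and 37.5, 58.2 and 51.2 in HT7 and a log2FC of -1.0 (SE 0.16, adjusted p = 0.000203). COL24A1, a chain of developing bone and cornea, had 15.3, 13.4 and 17.4 CPM in NT3, 6.09, 6.70 and 12.1 in HT3, 20.2, 23.6 and 19.8 in NT5, 10.5 and 3.41 in HT5, 3.69, 17.3 and 17.2 in NT7 and 2.83, 5.62 and 2.25 in HT7. NT7 replicate 1 lay among the HT7 samples for COL24A1, and the log2FC of -1.84 (SE 0.53, adjusted p = 0.01) was just above the threshold, while without that sample it was -2.28 (adjusted p = 0.000957). With all samples, COL24A1 was called by DESeq2 (adjusted p = 0.00071) and by edgeR with other size factors (adjusted p = 0.00938) or 1 entry per locus (adjusted p = 0.00978). COL2A1, the main collagen of cartilage, was below normoxia in all samples of each day, with 24, 24.4 and 19.7 CPM in NT3 and 12.8, 11.6 and 14.2 in HT3, 15, 24.9 and 18.4 in NT5 and 11.6 and 9.25 in HT5, and 16.1, 21.4 and 23 in NT7 and 13.2, 9.01 and 15.1 in HT7, but its log2FC of -0.90 (SE 0.25, adjusted p = 0.0143) on day 5 and -0.70 (SE 0.22, adjusted p = 0.0165) on day 7 did not pass. COL2A1 was called by DESeq2 on day 5 (adjusted p = 0.00321) and day 7 (adjusted p = 0.00733), and by edgeR on day 5 without NT5 replicate 1 (log2FC -1.06, adjusted p = 0.00805). COL11A1 and COL11A2, which copolymerize with type II, were not called on any day.

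Fibroblast markers also differed. Of 4 of 6 in the table, TCF21, FGF10 and MFAP4 were downregulated and FBLN1 was upregulated on day 7, and the summed level was 415.8 to 546.5 CPM in HT7 against 1298 to 1468 in NT7, 410.6 to 656.6 in HT5 against 1416 to 1531 in NT5, and 1018 to 1241 in HT3 against 1482 to 1544 in NT3. Of 5 of 6 myofibroblast and smooth muscle markers, MYH11 and LMOD1 were downregulated on day 7, with sums of 455.6 to 691.8 CPM in HT7 against 655.4 to 879.4 in NT7. ACTA2 (mean 246.9 CPM in HT7 against 249.3 in NT7), TAGLN (10 against 12.2) and DES (84.4 against 50.3, higher in all HT7 samples, adjusted p = 0.0173) were not called. Of 5 pericyte markers, CSPG4 and COX4I2 were downregulated on day 7 and the other 3 were not called, with sums of 507.5 to 587.5 CPM in HT7 against 660.8 to 949.1 in NT7. Of 4 mesothelial markers, UPK3B was downregulated (mean 14.9 CPM in HT7 against 127.1 in NT7) and made up most of the sum of 10.6 to 38.7 CPM against 76.6 to 168.5, while WT1, LRRN4 and CALB2 had higher means in HT7 and were not called. The part of these cells in the collagen values was not tested. Skeletal muscle markers, with sums of 57.8 to 115.5 CPM in the other 15 samples, reached 417.5 in HT3 replicate 2 and 375.1 in HT5 replicate 1. In those 15 samples the sum was mostly MYLPF. HT3 replicate 3 also had more ACTA1 (16.9 CPM) and MYH8 (15.2) than any NT3 sample (at most 2.58 and 1.91).

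The multiplexins, which are linked to basement membranes and yield the fragments restin and endostatin, moved in opposite directions on day 7. COL15A1 had 348, 406 and 353 CPM in NT3 and 132, 198 and 154 in HT3, 334, 378 and 262 in NT5 and 75 and 45.6 in HT5, and 177, 394 and 267 in NT7 and 70, 63.6 and 63.8 in HT7. Every HT sample was below every NT sample of its day. The log2FC was -1.20 (SE 0.25, adjusted p = 0.0372) on day 3, -2.43 (SE 0.31, adjusted p = 0.000131) on day 5 and -2.09 (SE 0.26, adjusted p = 2.29e-05) on day 7, and COL15A1 was the only collagen whose day 5 call held in all 5 fits that left out 1 sample of that day. COL18A1 had 19.1, 22.3 and 25.3 CPM in NT3 and 19.3, 14.3 and 17.8 in HT3, 15.6, 18.8 and 14 in NT5 and 17.5 and 17.6 in HT5, and 14.8, 13.2 and 13.8 in NT7 and 27.5, 18.6 and 21.8 in HT7. The COL18A1 log2FC was -0.37 (adjusted p = 0.314) on day 3 and 0.12 (adjusted p = 0.662) on day 5, not called. HT7 was above NT7 in all samples, with a log2FC of 0.70 (SE 0.17, adjusted p = 0.00376), and the call was lost without HT7 replicate 1 (log2FC 0.54, adjusted p = 0.0227), without NT7 replicate 2 (log2FC 0.66, adjusted p = 0.0179) and without NT7 replicate 3 (log2FC 0.69, adjusted p = 0.014).

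Of type VI, COL6A2 was downregulated on days 5 and 7, with 1459, 1179 and 1281 CPM in NT3, 1000, 639 and 923 in HT3, 1037, 1151 and 1190 in NT5, 588 and 423 in HT5, 1040, 1409 and 1046 in NT7 and 411, 698 and 393 in HT7. No HT sample of COL6A2 overlapped with normoxia on any day, and its log2FC was -1.16 (SE 0.26, adjusted p = 0.00419) on day 5 and -1.22 (SE 0.23, adjusted p = 0.000488) on day 7. The day 5 call was lost without HT5 replicate 2 (log2FC -0.95, adjusted p = 0.083), without NT5 replicate 2 (log2FC -1.13, adjusted p = 0.013) and without NT5 replicate 3 (log2FC -1.11, adjusted p = 0.0139). COL6A3, which joins COL6A2 in the same filament, had a log2FC of 0.04 (SE 0.30, adjusted p = 0.916) on day 7. COL6A5 and COL6A6 were rare transcripts. COL6A6 had 9, 26 and 8 counts in NT3, 6, 10 and 9 in HT3, 22, 15 and 12 in NT5, 12 and 15 in HT5, 1, 7 and 7 in NT7 and 23, 13 and 27 in HT7, with a day 7 log2FC of 1.81 (SE 0.57, adjusted p = 0.0164) that was not called. COL6A5 had 9, 31 and 15 counts in NT3, 8, 12 and 11 in HT3, 22, 11 and 4 in NT5, 4 and 14 in HT5, 9, 11 and 11 in NT7 and 0, 26 and 9 in HT7, and it was not called on any day.

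The 2 chains of type VIII, a network collagen of vessel walls, also went opposite ways on day 7. COL8A1 was upregulated on day 7, with 2.02, 0.907 and 0.796 CPM in NT3, 1.30, 0.775 and 1.23 in HT3, 1.33, 1.08 and 0.982 in NT5, 2.13 and 2.49 in HT5, 2.60, 1.42 and 1.25 in NT7 and 4.27, 4.17 and 5.94 in HT7 and a log2FC of 1.45 (SE 0.37, adjusted p = 0.00516). COL8A2 was downregulated on day 7, with 4.37, 2.12 and 2.50 CPM in NT3, 2.42, 1.94 and 2.28 in HT3, 1.94, 1.91 and 3.20 in NT5, 0.825 and 0.541 in HT5, 2.12, 3.31 and 3.61 in NT7 and 0.404, 0.847 and 1.33 in HT7 and a log2FC of -1.79 (SE 0.42, adjusted p = 0.00274). Neither gene overlapped between HT7 and NT7. The COL8A1 call was lost without HT7 replicate 3 (log2FC 1.28, adjusted p = 0.0253), without NT7 replicate 2 (log2FC 1.32, adjusted p = 0.0266) and without NT7 replicate 3 (log2FC 1.25, adjusted p = 0.0277), and the COL8A2 call without HT7 replicate 1 (log2FC -1.46, adjusted p = 0.013), without NT7 replicate 2 (log2FC -1.72, adjusted p = 0.0103) and without NT7 replicate 3 (log2FC -1.64, adjusted p = 0.0121). COL26A1 had 42, 36 and 55 counts in NT3, 25, 6 and 23 in HT3, 19, 42 and 52 in NT5, 9 and 4 in HT5, 9, 14 and 19 in NT7 and 5, 15 and 4 in HT7. The COL26A1 log2FC on day 5, when the groups did not overlap, was -2.40 (adjusted p = 0.0236) and was not called by edgeR, while DESeq2 called it (-2.41, adjusted p = 0.00682). The COL26A1 value was -3.29 without HT5 replicate 1 and -1.82 without HT5 replicate 2. COL28A1, known from peripheral nerve, had 16, 22 and 18 counts in NT3, 13, 11 and 16 in HT3, 15, 12 and 9 in NT5, 22 and 18 in HT5, 21, 13 and 15 in NT7 and 17, 19 and 42 in HT7, and was not called on any day.

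Change over days was tested in a model with day as a number. In normoxia no collagen had a called slope, 2 of 38 had an unadjusted p under 0.05 (background 5.36%), edgeR called 0.0% of all genes, and DESeq2 also called no collagen. In hyperoxia, 10 collagens had a falling slope (background 15.1%) and 3 a rising one (13.2%). The falling ones were COL4A3, COL4A4, COL4A5, COL4A6, COL9A2, COL13A1, COL15A1, COL19A1, COL23A1 and COL27A1, and the rising ones COL5A3, COL8A1 and COL12A1. In log2 per day, the slope in hyperoxia was -0.57 (SE 0.05, adjusted p = 2.33e-06) for COL4A3, -0.33 (SE 0.09, adjusted p = 0.00613) for COL4A6 and 0.63 (SE 0.08, adjusted p = 3.46e-05) for COL5A3. 

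The difference between both slopes, which asks whether the gap to normoxia itself moved over days, was called for 5 collagens. It widened downwards for 3 (background 4.46%), COL23A1 at -0.71 (SE 0.11, adjusted p = 0.00124) log2 per day, COL4A3 at -0.46 (SE 0.07, adjusted p = 0.00122) and COL13A1 at -0.48 (SE 0.11, adjusted p = 0.00915). It moved upwards for 2 (background 2.08%), COL5A3 at 0.53 (SE 0.12, adjusted p = 0.00625) and COL18A1 at 0.27 (SE 0.06, adjusted p = 0.00666). COL4A4 was just above the threshold at -0.46 (SE 0.11, adjusted p = 0.0111). The normoxia slope of COL18A1 was -0.17 (adjusted p = 0.364) and its hyperoxia slope 0.10 (adjusted p = 0.0647), so neither was called alone. With the replicate number as a block within days, COL5A3 (adjusted p = 0.0151) and COL18A1 (adjusted p = 0.0116) were not called. Leaving out 1 sample at a time, COL4A3 and COL23A1 kept their call in all 17 fits, while COL13A1 lost it in 15, COL5A3 in 9 and COL18A1 in 8.

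Ratios between chains within a sample do not depend on the scaling of libraries. Of 9 listed pairs, 6 had at least 10 counts for both chains in every sample, and they were compared with a 2-sided exact permutation test of the HT minus NT difference within days, for which 0.00025 is the smallest possible p. COL5A1 per COL5A2 was 0.272, 0.313 and 0.259 in NT3 and 0.224, 0.209 and 0.219 in HT3. It was 0.243, 0.299 and 0.254 in NT5 and 0.126 and 0.104 in HT5, and 0.229, 0.309 and 0.285 in NT7 and 0.192, 0.115 and 0.145 in HT7. All 8 HT samples were below the NT samples of their day, and the log2 ratio was lower by 0.82 in hyperoxia (exact permutation p = 0.00025, 0.0015 after adjustment over the 6 ratios). 

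COL1A1 per COL1A2 was 1.10, 1.06 and 0.947 in NT7 and 1.57, 1.02 and 1.67 in HT7, with HT7 replicate 2 among the NT7 samples, and over all days the log2 ratio differed by 0.22 (exact permutation p = 0.106, adjusted 0.32). The other 4 ratios differed by 0.02 for COL3A1 per COL1A1, 0.02 for COL4A1 per COL4A2, 0.09 for COL4A3 per COL4A4 and -0.14 for COL4A5 per COL4A6, with adjusted exact permutation p-values of 0.874, 0.772, 0.772 and 0.416. Within the type IV pairs, then, a change of one chain relative to its partner was not detected, while the COL4A3 and COL4A4 sum relative to that of COL4A1 and COL4A2, which was not tested, was lower in all HT5 and HT7 samples.

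**Figure D4:**
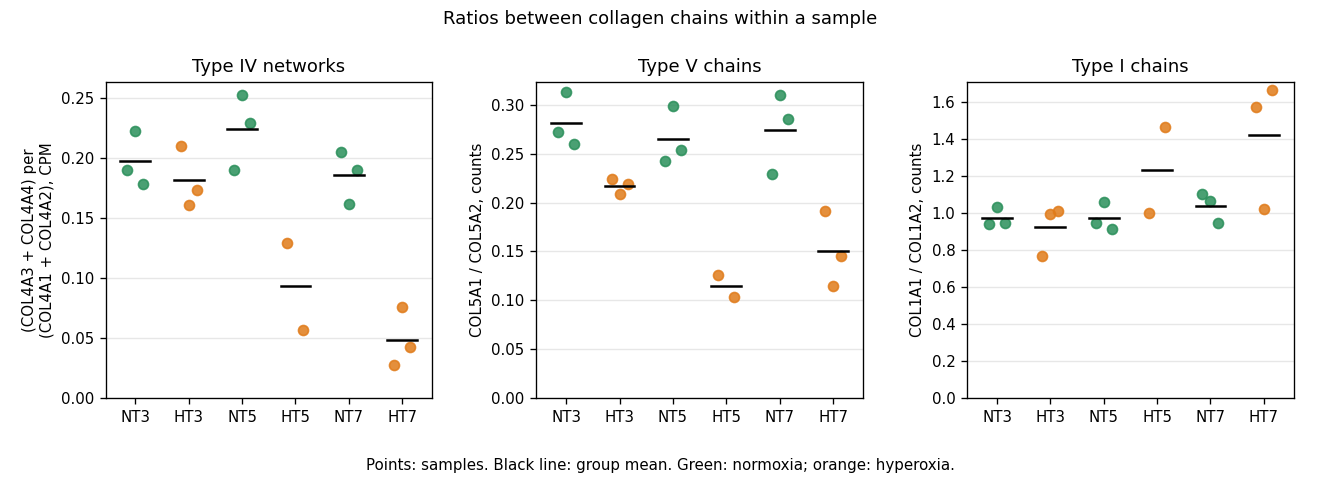
Ratios between collagen chains in each sample, with the groups on the horizontal axis, points for samples and black lines for group means. The type IV panel divides the CPM of COL4A3 and COL4A4 by those of COL4A1 and COL4A2, with all HT7 values at or below 0.0762 and all NT7 values at or above 0.162, and the COL5A1 per COL5A2 ratio was lower in HT on each day.

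Genes that act on collagen were listed by role, and 49 of 55 were tested. P4HB, COLGALT1, LAIR1 and MMP14 were not analysed here, and TLL2 and MMP8 did not pass the filter. None was called on day 3, when 17 of the 49 had an unadjusted p under 0.05 against 15.3% of all genes, and DESeq2 called 1. On day 5, 8 were downregulated and none was upregulated (7.62% and 8.56% of all genes), and on day 7, 16 were downregulated and 7 upregulated (16.9% and 16.7%). The median log2FC of the list was -0.11, -0.30 and -0.28 on days 3, 5 and 7.

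Hydroxylation, glycosylation and folding in the endoplasmic reticulum come first in making a collagen, and 6 of these 16 genes were downregulated and 2 upregulated on day 7 (background 16.9% and 16.7%). The prolyl 3-hydroxylase P3H2 had 26.2, 33.8 and 32.8 CPM in NT7 and 12.8, 12.9 and 11.7 in HT7 (log2FC -1.31 (SE 0.14, adjusted p = 7.43e-06)). The prolyl 4-hydroxylase subunit P4HA3 had 68.4, 78.9 and 79 in NT7 and 21, 42.9 and 23.6 in HT7 (log2FC -1.37 (SE 0.23, adjusted p = 0.000274)). The galactosyltransferase COLGALT2 had 4.51, 8.70 and 7.10 in NT7 and 2.31, 2.18 and 2.97 in HT7 (log2FC -1.44 (SE 0.28, adjusted p = 0.000707)), for the entry with the higher total of 2 with that name. The groups of all 3 did not overlap. SERPINH1, the collagen chaperone HSP47, fell with a log2FC of -0.85 (adjusted p = 0.00121) on day 5 and -0.64 (adjusted p = 0.00127) on day 7, and the lysyl hydroxylases PLOD2 and PLOD3 rose on day 7, with a log2FC of 0.79 (adjusted p = 0.00128) and 0.52 (adjusted p = 0.00471). SERPINH1, PLOD2 and PLOD3 were chosen after their values were seen.

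Of 7 genes for removal of propeptides, 3 were downregulated and 1 was upregulated on day 7 (background 16.9% and 16.7%). ADAMTS2, which cuts the N-propeptide of types I, II and III, had 53.4, 71.9 and 53.9 CPM in NT7 and 26.8, 26.1 and 29.4 in HT7, with a log2FC of -1.12 (SE 0.14, adjusted p = 1.87e-05). The enhancer of C-propeptide cleavage PCOLCE2 had 13.3, 16.5 and 13.8 in NT7 and 5.77, 4.54 and 3.43 in HT7, with -1.67 (SE 0.22, adjusted p = 3.88e-05). ADAMTS3 had -1.0 (SE 0.28, adjusted p = 0.00852), a call lost without HT7 replicate 1 (log2FC -0.80, adjusted p = 0.0431), without HT7 replicate 3 (log2FC -0.88, adjusted p = 0.0428), without NT7 replicate 1 (log2FC -0.87, adjusted p = 0.0358), without NT7 replicate 2 (log2FC -1.05, adjusted p = 0.0176) and without NT7 replicate 3 (log2FC -1.08, adjusted p = 0.0134). Of 5 cross-linking oxidases, LOXL4 rose from 11.3, 7.89 and 12.5 CPM in NT7 to 19.4, 19.2 and 33.6 in HT7 (log2FC 1.19 (SE 0.27, adjusted p = 0.00215)), and LOXL3 fell with a log2FC of -0.37 (SE 0.10, adjusted p = 0.00871). The LOXL4 call was lost without HT7 replicate 3 (log2FC 0.88, adjusted p = 0.0148) and without NT7 replicate 2 (log2FC 1.02, adjusted p = 0.0141), and the LOXL3 call without HT7 replicate 2 (log2FC -0.32, adjusted p = 0.0308), without HT7 replicate 3 (log2FC -0.29, adjusted p = 0.0548), without NT7 replicate 1 (log2FC -0.35, adjusted p = 0.0291), without NT7 replicate 2 (log2FC -0.34, adjusted p = 0.0339) and without NT7 replicate 3 (log2FC -0.41, adjusted p = 0.0111).

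The small proteoglycans that bind fibrils had 5 downregulated genes and 1 upregulated gene of 7 on day 7 (background 16.9% and 16.7%). PRELP, which links collagen to basement membranes, had 115, 161 and 212 CPM in NT5 and 35.6 and 35.4 in HT5, and 273, 248 and 140.2 in NT7 and 39.2, 29 and 30.2 in HT7, with a log2FC of -2.20 (SE 0.32, adjusted p = 0.000319) and -2.75 (SE 0.28, adjusted p = 5.34e-06). Fibromodulin (FMOD) had 19.3, 17.2 and 23.8 CPM in NT7 and 2.25, 7.50 and 3.69 in HT7, with -2.17 (SE 0.35, adjusted p = 0.000173). Asporin (ASPN) had 323, 317 and 369 in NT7 and 69.5, 109 and 86.4 in HT7, with -1.93 (SE 0.23, adjusted p = 1.79e-05). HT7 lay below NT7 in all samples of these 3 genes. Lumican (LUM), chosen after its values were seen, was the upregulated member, at 1.25 (adjusted p = 0.00311).

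Of 8 receptor and uptake genes, the integrin chain ITGA2 was higher in HT7, with 41, 55.6 and 71.7 CPM in NT7 and 148, 95.1 and 127 in HT7 (log2FC 1.14 (SE 0.22, adjusted p = 0.000829)). On day 3 ITGA2 went the other way without a call, lower in all HT3 samples (mean 57.1 CPM against 98.9 in NT3). The endocytic receptor MRC2 fell on day 7 with a log2FC of -0.73 (SE 0.21, adjusted p = 0.00992). The MRC2 call was lost without HT7 replicate 1 (log2FC -0.61, adjusted p = 0.0494), without HT7 replicate 3 (log2FC -0.62, adjusted p = 0.0496), without NT7 replicate 2 (log2FC -0.68, adjusted p = 0.0351) and without NT7 replicate 3 (log2FC -0.64, adjusted p = 0.0408). It was also lost by edgeR with no count filter (adjusted p = 0.0101) and with the samples of day 7 only (adjusted p = 0.0296). Of 6 degrading enzymes, cathepsin K (CTSK) was upregulated on day 7, from 364, 295 and 338 CPM in NT7 to 813, 881 and 849 in HT7, with a log2FC of 1.35 (SE 0.23, adjusted p = 0.000284). The collagenase MMP1 (mean 15.8 CPM in HT7 against 1.62 in NT7, adjusted p = 0.0413), MMP9 (76.1 against 19.5, adjusted p = 0.0284) and FAP (17.9 against 32.5, adjusted p = 0.0192) did not overlap between these groups and were not called. CTSK is also expressed in macrophages, whose 5 listed markers went different ways on day 7. CD68 was upregulated (mean 1597 CPM in HT7 against 688.2 in NT7), MARCO was downregulated (13.5 against 61.3), and MRC1 (132.6 against 235), CSF1R (175.8 against 141.3) and CD163 (31.2 against 11.1) were not called. Their sum, 1678 to 2311 CPM in HT7 against 1061 to 1248 in NT7, was mostly CD68, and the part of these cells was not tested.

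**Figure D5:**
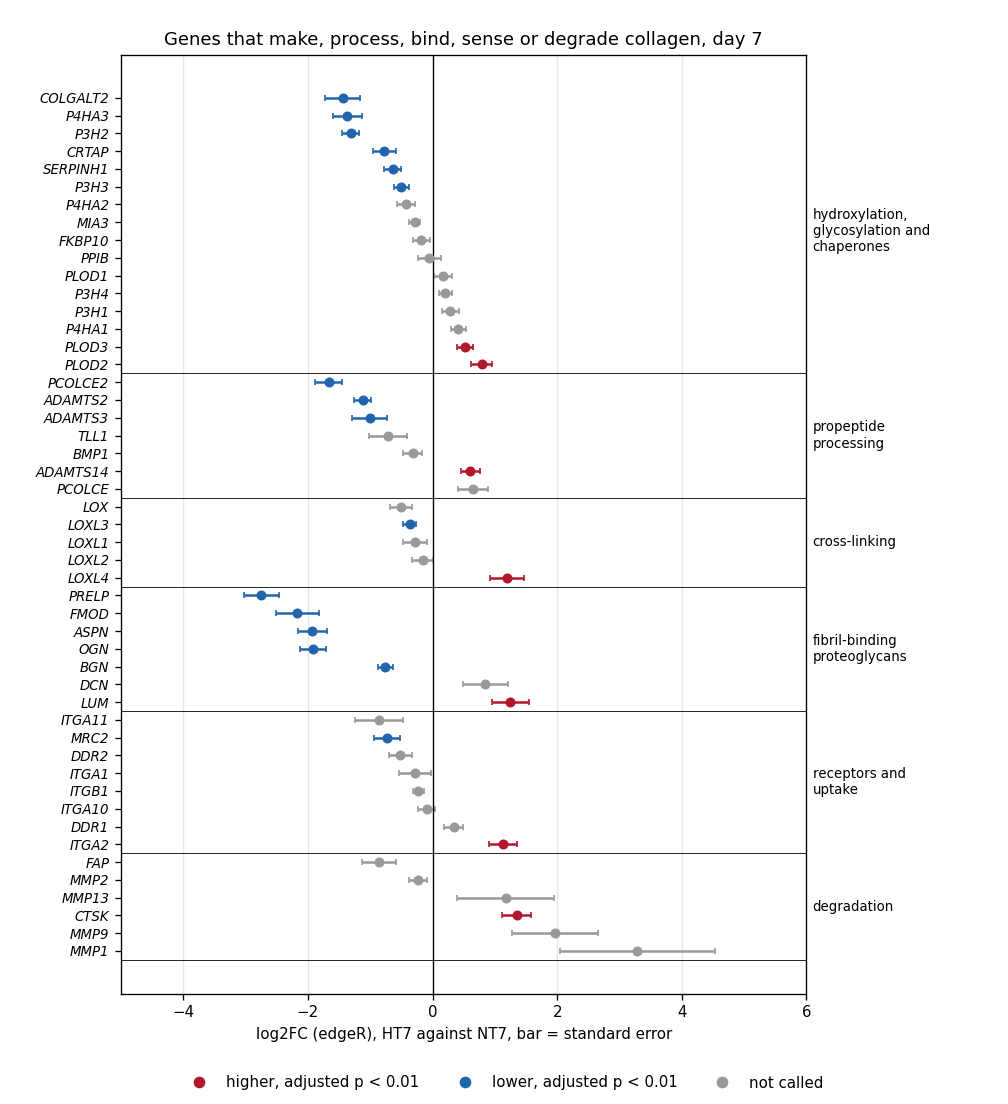
Log2FC of HT7 against NT7 for the 49 tested genes that make, process, bind, sense or degrade collagen, in rows grouped by role, with bars for the standard error and colour for the call at an adjusted p under 0.01 (edgeR). Among the called genes PRELP lies farthest left at -2.75 and CTSK farthest right at 1.35.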

How the data were processed

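RNA-seq counts of 17 lung samples were used. The authors deposited raw counts per locus, not normalized, from stranded poly(A) libraries. The submitters' processing notes name FastQC, STAR 2.7.10a and OryCun2.0, and the counting program is not given in the sources used here. A locus with several genes (434 loci) repeats its counts for each gene. Reads of genes on opposite strands, such as COL4A1 and COL4A2 or COL4A4 and RHBDD1, can be mixed if strand was not used in counting.

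The fit used edgeR 4.0.16 and R 4.3.3, with filterByExpr, TMM factors, 6 group means over all 17 samples, the quasi-likelihood test, Benjamini-Hochberg adjustment over all genes tested, and a prior count of 0.125. A second model used condition and day as a number. DESeq2 1.42.0 was an alternative, beside other size factors, no filter, 1 entry per locus, samples of 1 day, a replicate block and leaving out each sample. Members, classes and lists were chosen with earlier results of these data known. Values in every sample are given for the type I, III and IV chains, COL23A1, the 3 genes of each class with the largest mean change on days 5 and 7 and genes with a called trend, and other called genes were added. In the list of genes that act on collagen, up to 3 called genes per role with the largest log2FC on day 7 and all DEGs are named. On simulated counts with 200 genes changed by a log2FC of 2, edgeR recovered 89.5%, 87% and 89% on days 3, 5 and 7, with at most 1 other call. The simulated samples were independent and all other genes were unchanged. These rates therefore do not carry over to smaller changes or to samples that deviate together.

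Samples with the same replicate number deviated together on day 3, with correlations of 0.166, 0.131 and 0.199. The correlations were 0.264 and 0.141 on day 5, when HT5 replicate 2 correlated better with another number, and 0.174, 0.109 and 0.0695 on day 7. The labels do not say what the numbers stand for. No collagen was called on day 3 with or without a replicate block, while on days 5 and 7 some calls were lost with it, as listed below.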

Additional observations from a re-analysis of the deposited data

Results flagged for a closer look

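The gap between hyperoxia and normoxia moved with day for 5 collagens, by the test of the interaction between condition and day. The slope of the HT minus NT difference was -0.71 log2 per day for COL23A1, -0.46 for COL4A3, -0.48 for COL13A1, 0.53 for COL5A3 and 0.27 for COL18A1. It rested on 3 days, with 2 samples in HT5. With the replicate block, COL5A3 (0.503, adjusted p = 0.0151) and COL18A1 (0.264, adjusted p = 0.0116) were not called. Most of the 17 fits that left out 1 sample lost the COL13A1 call, and many lost those of COL5A3 and COL18A1. COL4A3 and COL23A1 kept theirs in all of them.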

How the results depend on the processing

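Medians of the 4 classes kept their direction under every alternative tried, except the transmembrane median of day 3, which was near 0. Other size factors, no filter on low counts and 1 entry per locus left all collagen counts within 1.5 times of their value. DESeq2 gave 1 downregulated collagen on day 3, 3 upregulated on day 5 and 5 with a downward trend of the difference, and 1 downregulated gene of the list of genes that act on collagen on day 3. It also called COL1A2 (adjusted p = 0.00956) on day 7, COL5A3 (0.00649) and COL8A2 (0.0043) on day 5, and the trend of the difference of COL4A4 (0.00049) and COL9A2 (0.00388). The share of all genes that DESeq2 called is not given here, so its counts have no background to be set against. At an adjusted p under 0.05 there were 1 downregulated collagen on day 3 (0.517% of all genes) and 15 downregulated (15.4%) and 4 upregulated (15.9%) on day 5. With a log2FC beyond 2 as well, 1 was downregulated and 0 upregulated on day 5, and 6 and 1 on day 7. Fits to the samples of 1 day alone, which share no spread with other days, gave 0 downregulated and 0 upregulated collagens on day 5, 8 and 2 on day 7, and 0 downregulated genes of the list on day 5. The day 7 calls lost in these edgeR fits were COL4A5, COL5A1, COL8A1, COL8A2, COL18A1, COL19A1 and COL21A1 (adjusted p 0.0146 to 0.0206). From the list, ADAMTS3, LOXL3, LOXL4 and MRC2 were lost (0.0121 to 0.0549).

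The replicate block gave 4 downregulated (3.78% of all genes) and 0 upregulated (3.58%) collagens on day 5, 0 with an upward trend of the difference, 5 downregulated and 1 upregulated gene of the list on day 5, and a COL9A1 log2FC of 0.137 on day 7. Of the genes named above, those not called with it were COL1A2, COL4A4, COL5A1, COL12A1 and COL13A1 on day 5 (log2FC -0.781, -1.641, -0.691, 0.921 and -1.492, adjusted p 0.013 to 0.055) and COL5A1, COL8A1, COL19A1, ADAMTS3 and LOXL3 on day 7 (log2FC -0.686, 1.489, -1.998, -1.06 and -0.374, adjusted p 0.0101 to 0.0225). Correlations of same-numbered samples were 0.264 and 0.141 on day 5 and 0.174, 0.109 and 0.0695 on day 7, and every day 7 sample correlated best with its own number. The ratio COL3A1/COL1A1, near 0, changed sign with the median log2 ratio (-0.018) and on days 5 and 7 only (-0.003).

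Leaving out 1 sample at a time, day 5 gave 1 to 9 downregulated and 0 to 1 upregulated collagens, and day 7 gave 10 to 18 and 2 to 5. The lowest day 5 count came without HT5 replicate 2, with 3 without NT5 replicate 2 or 3, and the lowest upregulated count of day 7 without NT7 replicate 2 or 3. The trend of the difference was called for 2 to 7 downwards and 0 to 2 upwards. Of the list, 1 to 9 were downregulated and 0 to 3 upregulated on day 5, and 3 to 7 upregulated on day 7.

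The class medians ranged from -0.391 to -0.119 (day 3), -1.111 to -0.306 (day 5) and -1.864 to -0.932 (day 7) for basement membrane, from -1.067 to -0.435 (day 5) and -1.15 to -0.476 (day 7) for FACIT, and from -1.645 to -0.498 (day 5) and -2.697 to -1.327 (day 7) for transmembrane collagens. Values near 0 changed sign: the log2 ratios COL3A1/COL1A1 (-0.054 to 0.104), COL4A1/COL4A2 (-0.005 to 0.034) and COL4A3/COL4A4 (-0.047 to 0.219), and the log2FC of COL1A1 (-0.118 to 0.117), COL9A1 (-0.65 to 1.474), COL6A5 (-1.478 to 0.558) and COL28A1 (-0.011 to 0.657) on day 7 and of COL4A6 (-0.908 to 0.015), COL6A6 (-0.482 to 0.064) and COL6A5 (-1.414 to 0.252) on day 5.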
